A study of Mus musculus with 12 samples.

Results

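A set of 10 genes of the alveolar type 2 cell was followed across 5 normal mouse lungs and 7 mouse tumors: Sftpa1, Sftpb, Sftpc, Sftpd, Slc34a2, Abca3, Lamp3, Napsa, Cxcl15 and Lyz2. They were chosen by name, as genes of surfactant or established markers of the cell that makes it, and all 10 of 10 were found among the 30399 genes measured. Messenger RNA was sequenced in a study of lung cancer models made by nonviral CRISPR/Cas9 mutagenesis, in which a nuclease cuts chosen genes without a viral carrier. The labels give 1 factor, the tissue, which was normal lung in 5 samples and tumor in 7. The strain, age and sex of the mice, the genes cut, the agent and its route, and the treatment of the mice that gave normal lung are not given in the sources used here. The titles carry a number that tumors 3 and 4 share (159) and that tumors 5, 6 and 7 share (201). The titles of tumors 3 to 6 also hold a Spanish word for lung and those of tumors 1 and 7 one for trachea, while that of tumor 2 holds no such word. The labels do not state that samples came from separate mice, so p-values measure only the spread between these samples, part of which may be technical.

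Type 2 cells are cuboidal cells of the alveolar wall that make surfactant, a film of phospholipid and protein that lowers surface tension and keeps the air spaces open. The lipid is packed into lysosome-related organelles, the lamellar bodies, together with the small hydrophobic proteins SP-B and SP-C, and is released by exocytosis, while the collectins SP-A and SP-D bind microbes. Surfactant is taken up again by type 2 cells or broken down by alveolar macrophages, and the lung factor NKX2-1 acts with FOXA and C/EBP factors at many of these genes.

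Each normal lung had between 11126432 and 17032234 reads on genes, and each tumor between 13093843 and 24217633. Levels are normalized counts, which are reads divided by a factor per sample that corrects for depth. At these depths 3 reads are worth at most 4.85 normalized counts in a normal lung and 3.57 in a tumor, and lower values cannot be ranked. The labels were checked with markers. Of the 10 type 2 genes 9 had 3039 normalized counts or more in every normal lung, with Napsa the exception, but these are the members themselves. Alveolar type 1 markers, outside the members, summed to 116592 to 196150 normalized counts in normal lung and 4617 to 9523 in tumors. All 8 of 8 neuroendocrine markers were called higher in tumor, with a median log2 fold change of 8.14. Over 23674 genes tested with limma, 5686 were called higher and 5805 lower, which required an adjusted p below 0.05 and a log2 fold change of 1 or more in either direction. Y-linked genes were high in 4 normal lungs and 1 tumor and low in the others, so tissue is partly confounded with what these genes mark, and an alternative with their level as a covariate left all 10 members called lower.

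The start regions of 4 members show what their upstream sequences share and where they differ. Sftpb and Sftpa1 hold the core letters bound by NKX2-1. Abca3 and Lyz2 are shown as examples of the 5 members without them in this window, the others being Slc34a2, Cxcl15 and Lamp3. Each line gives the 250 bases before the annotated start in RefSeq (GRCm38.p6), 5′ to 3′ on the gene's strand, with CTCAAG in capitals. Sftpb lies at chr6:72304360-72304609 (plus strand), Sftpa1 at chr14:41131538-41131787 (plus strand), Abca3 at chr17:24351773-24352022 (plus strand) and Lyz2 at chr10:117282273-117282522 (minus strand).
Sftpb: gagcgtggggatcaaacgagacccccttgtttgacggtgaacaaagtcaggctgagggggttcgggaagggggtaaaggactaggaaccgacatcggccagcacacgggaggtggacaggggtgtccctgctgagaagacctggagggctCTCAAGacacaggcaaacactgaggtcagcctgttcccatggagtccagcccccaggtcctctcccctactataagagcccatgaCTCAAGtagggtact
Sftpa1: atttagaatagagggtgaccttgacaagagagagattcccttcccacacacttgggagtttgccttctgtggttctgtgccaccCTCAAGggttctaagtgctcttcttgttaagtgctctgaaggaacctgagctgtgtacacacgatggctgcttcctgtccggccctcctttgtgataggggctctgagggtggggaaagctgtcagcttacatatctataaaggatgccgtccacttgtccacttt
Abca3: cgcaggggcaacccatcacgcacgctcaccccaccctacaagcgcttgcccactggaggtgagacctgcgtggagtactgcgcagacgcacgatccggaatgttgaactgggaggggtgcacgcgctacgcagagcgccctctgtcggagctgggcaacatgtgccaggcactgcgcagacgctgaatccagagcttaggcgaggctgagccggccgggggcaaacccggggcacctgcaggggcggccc
Lyz2: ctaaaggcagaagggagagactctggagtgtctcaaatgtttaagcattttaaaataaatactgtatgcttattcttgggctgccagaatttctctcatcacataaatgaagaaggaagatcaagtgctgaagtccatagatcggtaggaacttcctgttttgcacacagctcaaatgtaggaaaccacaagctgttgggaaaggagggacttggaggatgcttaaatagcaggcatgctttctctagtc
Sftpb held CTCAAG at 100 to 95 and at 15 to 10 bases before the start, and Sftpa1 held it at 166 to 161 bases before the start. The RefSeq table had a start region for 7 of the 10 members, and 2 of these 7 held CTCAAG on either strand, beside 13.3% of all 32851 promoters of the same length. The FOXA core TGTTTNC was found upstream of Sftpb and Lamp3 (17.8% of all promoters), and the C/EBP form TTNNGNAA upstream of Slc34a2, Sftpb and Lyz2 (36.9% of all promoters). The 3 motifs are different strings and were searched on both strands, and a match describes letters, not a bound site, just as no match says only that the letters are not in this window.

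All 10 of 10 members were called lower in tumor, where 24.5% of all genes tested were called lower. For 9 of 10 members every tumor lay below every normal lung, as did 18.4% of all genes, and Napsa was the exception. No member was called higher (24% of all genes were), and none had every tumor above every normal lung (20.1% of all genes). The members' median log2 fold change was -9.49, beside 0.04 over all genes tested, and it was -7.98 with edgeR and -8.02 with DESeq2, both on 11 samples. By limma Cxcl15, Sftpa1 and Slc34a2 held ranks 1, 2 and 3 from the lowest of 23674 fold changes. Only genes with a high level in normal lung can rank so low. Their values with edgeR were smaller in size, at -9.39, -9.22 and -8.40. Together the members held between 1.72% and 2.45% of all reads of a normal lung, but between 0.00523% and 0.0428% of those of a tumor. The highest tumor share, in tumor 7, was mostly Lyz2 and Abca3, with 8765 and 1434 of its 10354 member reads. In bulk tissue a loss of type 2 cells and a loss of RNA per cell cannot be told apart.

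**Figure D1:**
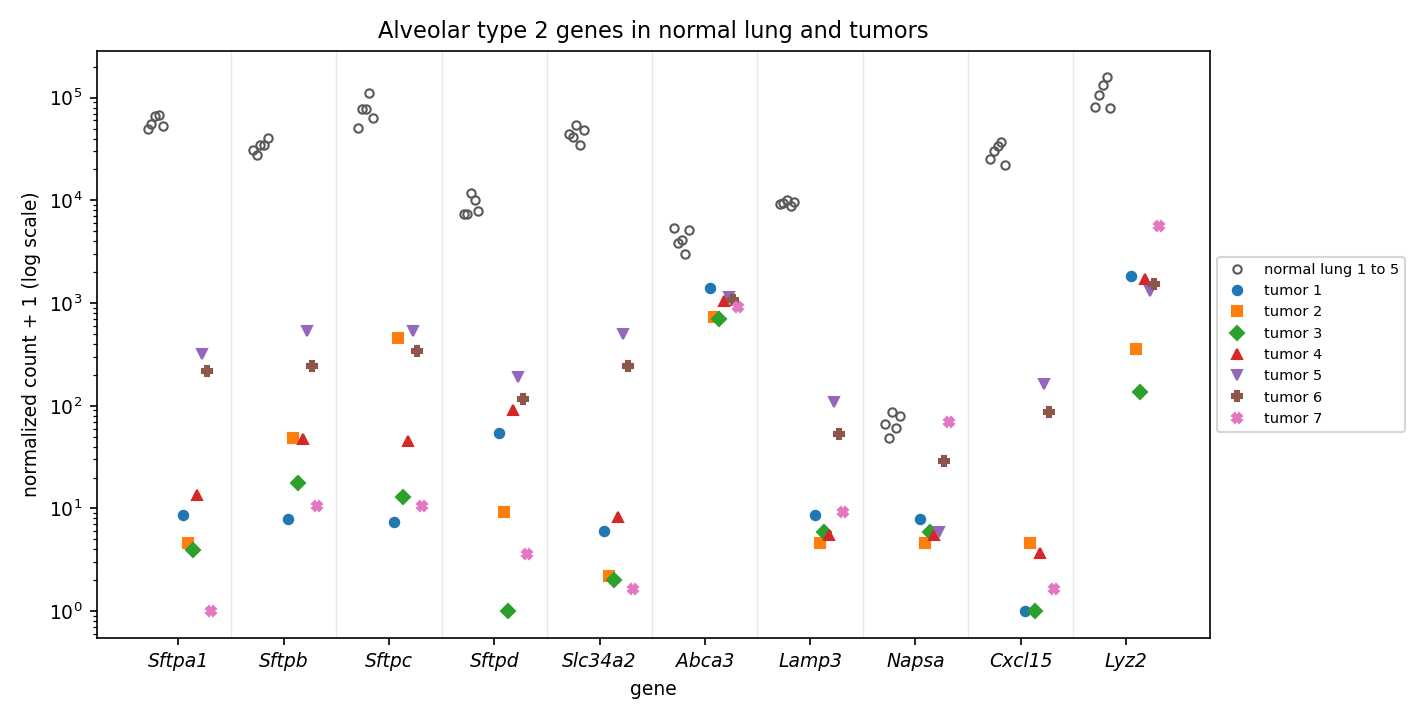
Normalized count plus 1 (log scale) of each of the 10 genes, with open circles for normal lungs 1 to 5 and 1 colored symbol for each of tumors 1 to 7. The tumor symbols sit below all open circles for every gene but Napsa, where tumor 7 (67.9) lies among the normal lungs, and they spread least for Abca3 (701 to 1402).

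Sftpc and Sftpb encode the hydrophobic surfactant proteins SP-C and SP-B, which spread the lipid film, and SP-B is also needed to form lamellar bodies. Sftpc (ENSMUSG00000022097) had 51073, 77516, 78060, 111408 and 63770 normalized counts in the normal lungs 1 to 5. In tumors it ranged from 6.33 in tumor 1 through a median of 44.0 to 539 in tumor 5. Tumors 2, 5 and 6 were the 3 highest, at 454, 539 and 337, and the remaining 4 were at or below 44.0. Its log2 fold change was -10.21 (standard error 1.08, limma adjusted p = 3.06e-06). Sftpb (ENSMUSG00000056370) had 31104, 27737, 34370.4, 34725 and 40578 normalized counts in normal lung. Its tumor values ran from 6.96 in tumor 1 through a median of 46.7 to 533 in tumor 5, so the lowest normal lung was still far above the highest tumor. The log2 fold change of Sftpb was -9.50 (standard error 0.89, limma adjusted p = 9.91e-07). Tumor 2 set these genes apart at the RNA level, with 381 reads of Sftpc and 40 of Sftpb.

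Sftpa1 and Sftpd encode the collectins SP-A and SP-D, soluble lectins of lung defense that also help to organize or clear surfactant. Sftpa1 (ENSMUSG00000021789) had 50084, 55810.0, 66019, 67511 and 52539 normalized counts in normal lung. Its tumor values ran from 0 in tumor 7, where a count of 0 allows up to 1.92, through a median of 7.60 to 317 in tumor 5. Only tumors 5 and 6 exceeded 12.6, and tumors 2, 3 and 7 held 3 reads or fewer. The log2 fold change was -11.95 (standard error 1.21, limma adjusted p = 1.93e-06). Sftpd (ENSMUSG00000021795) had 7431, 7335, 11829, 10139.8 and 7966 normalized counts in normal lung and ran from 0 in tumor 3 through a median of 53.2 to 190.1 in tumor 5. In tumors 1 and 4 it stood at 53.2 and 89.8 normalized counts, the former resting on 84 reads, where Sftpa1 had 7.60 and 12.6. Its log2 fold change was -8.56 (standard error 1.13, limma adjusted p = 2.3e-05).

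Abca3 encodes the lipid pump of the lamellar body membrane and stood apart from the other members by how little it varied among tumors. Abca3 (ENSMUSG00000024130) had 5343, 3852, 4109, 3039 and 5147 normalized counts in normal lung, and 701 in tumor 3 as the lowest, a median of 1037 and 1402 in tumor 1 as the highest tumor. The groups did not overlap, and the highest tumor was 2.00 times the lowest. Its mean was 4298 ± 953 in normal lung (n = 5, SD) and 1001 ± 246 in tumors (n = 7, SD), which left 23.3% of the normal lung mean, with a log2 fold change of -2.11 (standard error 0.20, limma adjusted p = 9.64e-07). An antisense gene, D330041H03Rik, overlaps 9.75% of the exon bases of Abca3, and use of strand in counting is not given in the sources used here.

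Lamp3, a lysosome membrane protein found in lamellar bodies, varied least among normal lungs. Lamp3 (ENSMUSG00000041247) had 9276, 9420.5, 10022, 8759 and 9683 normalized counts there, and its tumor values ran from 3.57 in tumor 2 through a median of 7.60 to 108 in tumor 5. Only tumors 5 and 6 (51.9) exceeded 8.33, and its log2 fold change was -9.48 (standard error 0.71, limma adjusted p = 1.09e-07).

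Napsa encodes napsin A, an aspartic protease that takes part in processing the SP-B precursor. Napsa (ENSMUSG00000002204) was low throughout, at 65.8, 47.3, 85.6, 59.2 and 79.3 normalized counts in normal lung. In tumors it ran from 3.57 in tumor 2 through a median of 4.96 to 67.9 in tumor 7, and tumor 6 had 28.3. Tumor 7 lay within the range of normal lung while the other 6 tumors lay below it. The log2 fold change was -2.67 (standard error 0.64, limma adjusted p = 0.00262). With edgeR on 11 samples it was -1.67 (adjusted p = 0.0647), which is not a call. An antisense gene, Gm15396, shares 502 of the 2660 exon bases of Napsa (18.9%), so its counts are uncertain and may be incomplete. Whether this overlap accounts for the low level of Napsa in normal lung was not tested.

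Slc34a2 and Cxcl15 are a transporter and a chemokine that type 2 cells make beside surfactant. Slc34a2 (ENSMUSG00000029188), a sodium-phosphate cotransporter that takes up phosphate freed from surfactant lipid, had 44318, 41569, 53997, 34828 and 48630.5 normalized counts in normal lung. Its tumor values ran from 0.640 in tumor 7 through a median of 5.06 to 501 in tumor 5, and tumors 2, 3 and 7 had 1 read each. Outside tumors 5 and 6 the highest tumor value was 7.18, and the log2 fold change was -11.80 (standard error 1.34, limma adjusted p = 5.76e-06). Cxcl15 (ENSMUSG00000029375), the mouse chemokine lungkine, had 25258, 30205, 34241, 37158 and 22188 normalized counts in normal lung. It was at 0 in tumors 1 and 3, which allows up to 1.90 and 2.97 normalized counts, at a median of 2.69, and at 160.2 in tumor 5 as the highest. Tumors 1, 2, 3, 4 and 7 all held 3 reads or fewer of Cxcl15, and its log2 fold change was -12.18 (standard error 1.19, limma adjusted p = 1.39e-06).

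Lyz2 encodes lysozyme M, an antibacterial enzyme made by type 2 cells and by macrophages, monocytes and neutrophils. Lyz2 (ENSMUSG00000069516) had 81408, 106880.0, 134293, 157579 and 78689 normalized counts in normal lung, and ran from 134 in tumor 3 through a median of 1544 to 5613 in tumor 7. The groups did not overlap, and the order of the tumors differed from that of the surfactant protein genes, with tumor 7 highest and tumors 5 and 6 at 1301 and 1544. The log2 fold change was -6.64 (standard error 0.70, limma adjusted p = 3.07e-06). Of the 10354 member reads in tumor 7, 8765 were from Lyz2. Lyz1, a close paralog with which reads may be shared, had 4790.0 ± 1723 normalized counts in normal lung (n = 5, SD) and 11.6 ± 12.2 in tumors (n = 7, SD).

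Macrophage markers were also highest in tumor 7. All 10 of 10 macrophage and monocyte markers were measured, and their summed level was 9412 to 26395 normalized counts in normal lung and 1263 to 32002 in tumors, lowest in tumor 3 and highest in tumor 7, as for Lyz2. None of these 10 was at 0 in any tumor. Of 9 alveolar macrophage markers 7 were measured, with a summed level of 4415 to 19694 in normal lung and 158 to 5555 in tumors, again lowest in tumor 3 and highest in tumor 7. Siglecf, a surface receptor of alveolar macrophages, was at 0 in tumors 1 to 4, and Chil3, a secreted chitinase-like protein of these cells, was at 0 in tumor 3. The 8 neutrophil markers summed to 2303 to 5957 in normal lung and 7.93 to 4673 in tumors, with tumor 2 the highest. The parallel with Lyz2 was not particular to macrophages. The 7 club cell markers summed to 34.7 in tumor 3, the lowest, and to 10960.5 in tumor 7, the highest, with the tumors in the same order as for Lyz2. Summed fibroblast and lymphocyte markers were also highest in tumor 7. The part of any of these cells in the Lyz2 values was not tested.

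**Figure D2:**
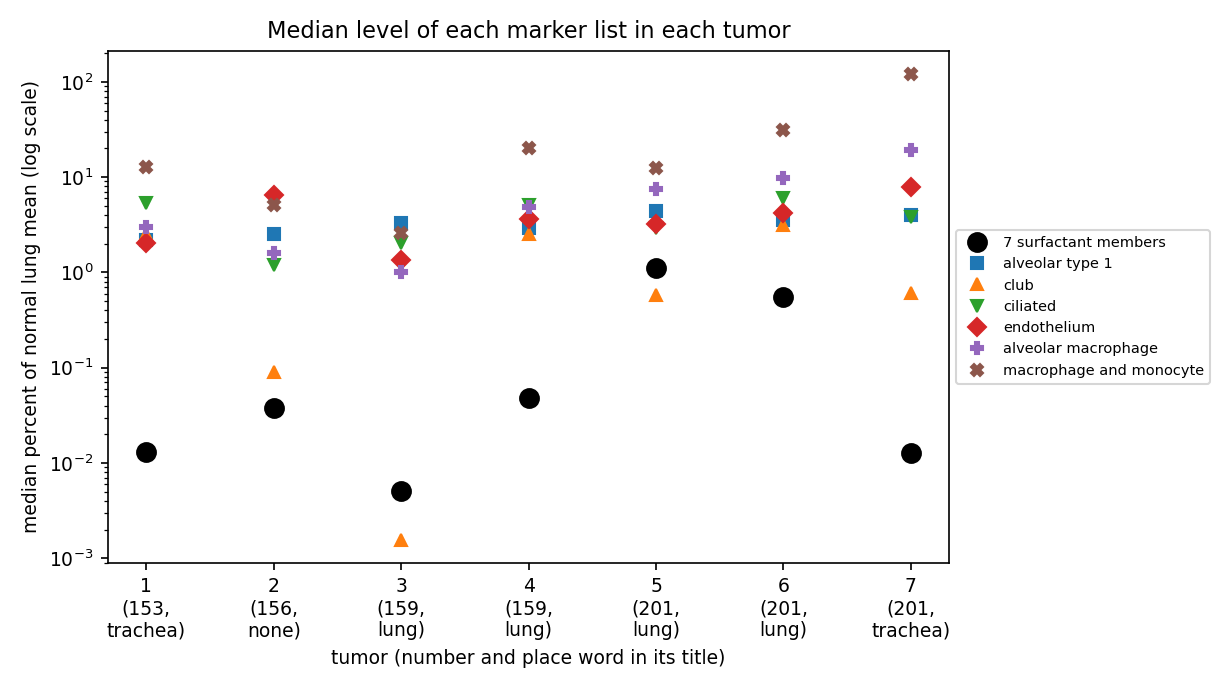
Median level of each marker list in tumors 1 to 7, as a percent of each gene's normal lung mean (log scale), with black circles for the 7 members other than Abca3, Napsa and Lyz2. The black circles lie between 0.00509% in tumor 3 and 1.12% in tumor 5, while the macrophage and monocyte median runs from 2.57% in tumor 3 to 121% in tumor 7.

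Levels were compared between genes after division by the joined length of all their annotated exons. This length can differ from that of the transcripts present. Overlaps with other genes, as for Abca3 and Napsa, were not corrected for, so the order is approximate. In normal lung Lyz2 led with 84931 ± 25897 normalized counts per kilobase (n = 5, SD), followed by Sftpc with 73854 ± 21790, and the ranges of these 2 genes overlapped. Sftpa1 (20417 ± 2771), Sftpb (17125 ± 2425), Cxcl15 (14015 ± 2904) and Slc34a2 (8910 ± 1443) came next on the same per-kilobase scale, each overlapping its neighbor. Sftpd (3699 ± 817), Lamp3 (2811 ± 140.4), Abca3 (458 ± 102) and Napsa (25.4 ± 5.78) followed with no overlap between neighbors. By the median over the 7 tumors the order per kilobase began with Lyz2 at 1173, then Abca3 at 111 and Sftpc at 42.6, while Cxcl15 and Slc34a2, at or near 3 reads in several tumors, cannot be ranked. Abca3 thus moved from the ninth place to the second, a description of levels to which no test was applied.

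The residue in single tumors, as a percent of the normal lung mean, fell into patterns that the labels do not define. Tumors 5 and 6, which share the title number 201, were the 2 highest for 6 of 10 members, and tumor 5 was the highest for 7. For the 7 members other than Abca3, Napsa and Lyz2, a subset formed after their values were seen, the median residue was 1.12% in tumor 5 and 0.549% in tumor 6. It was 0.0476% or less in the other 5 tumors. The lowest value, 0.00509% in tumor 3, rests on 3 reads of Sftpa1. Tumor 7, which also carries the number 201 but the word for trachea, had a median of 0.0126%. Within tumors 5 and 6 the 7 genes kept similar residues, the highest being 3.96 and 4.51 times the lowest. In tumor 2 that ratio was 223, from 0.594% for Sftpc to 0.00267% for Slc34a2. In tumor 4 it was 111, from 1.0% for Sftpd to 0.00904% for Cxcl15. The lower values rest on 1 read of Slc34a2 and 3 reads of Cxcl15, too few to fix the size of these ratios. In tumor 1 Sftpd stood at 0.595% while Cxcl15 was at 0. The median of alveolar type 1 markers, from the flat cells that line the same air spaces, ranged only from 2.19% to 4.41% over the 7 tumors.

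**Figure D3:**
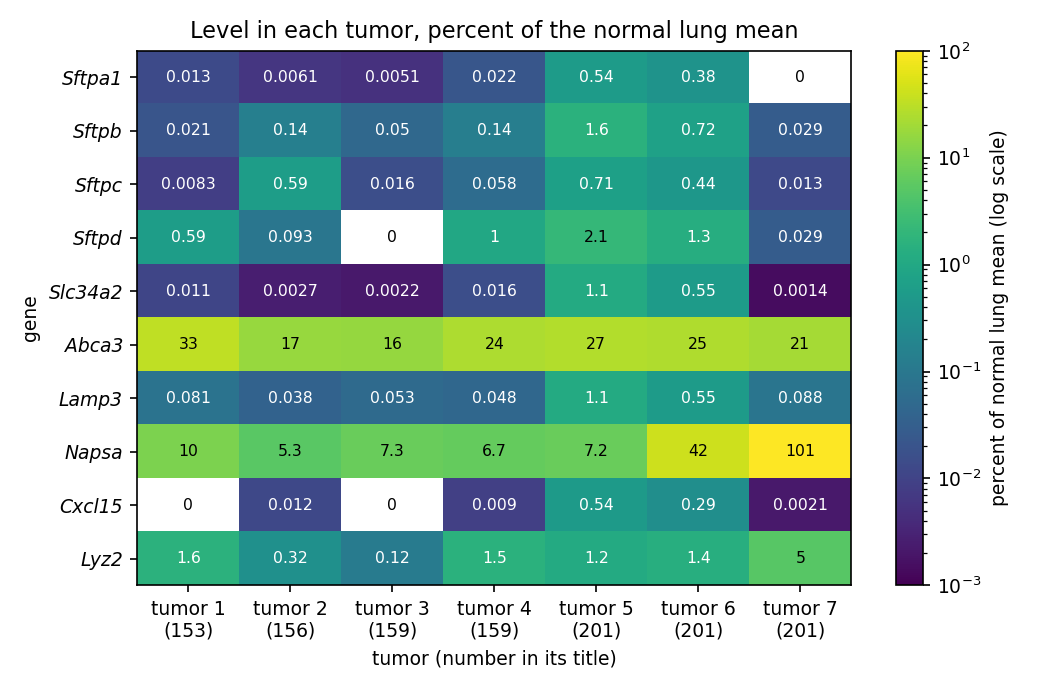
Level of each gene (rows) in tumors 1 to 7 (columns, with the title number in brackets) as a percent of its normal lung mean, printed in each cell and colored on a log scale, with white for 0. Columns 5 and 6 are the most even outside Abca3, Napsa and Lyz2, and single bright cells stand out for Sftpc in tumor 2 (0.594%) and Sftpd in tumor 4 (1.0%).

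The log2 ratio to Sftpc in the same sample was compared for the 5 other members with at least 3 reads in every sample. This filter removes Sftpa1, Sftpd, Slc34a2 and Cxcl15, which were near 0 in some tumors, so the ratios say nothing of the members as a whole. The smallest p that an exact two-sided permutation test can give for 5 against 7 samples is 0.00253, and p was adjusted over the 5 ratios. The ratio of Abca3 to Sftpc was higher in tumor by 8.10 on the log2 scale (exact permutation, adjusted p = 0.00631) and above every normal lung in 7 of 7 tumors. Napsa was too low in normal lung to fall as far as Sftpc did on this scale, so its ratio had to rise and is not given as a result. The difference for Lyz2 to Sftpc was 3.57 (exact permutation p = 0.0354, adjusted p = 0.0589), above every normal lung in 6 of 7 tumors. Tumor 2 was the exception. Without it the Lyz2 difference was 4.31 (exact permutation, adjusted p = 0.00541), and without tumor 5 it was 4.04 (exact permutation, adjusted p = 0.0433). No other alternative passed for Lyz2. The difference was 1.81 without the trachea-titled tumors and 3.49 with same-numbered tumors averaged (exact permutation, adjusted p = 0.185 and 0.159). For Sftpb and Lamp3 the differences were 0.71 and 0.72 (exact permutation, adjusted p = 0.357 and 0.535). Without tumor 2 they were 1.18 and 1.45 (exact permutation, adjusted p = 0.00541 and 0.0433), so tumor 2, with its excess of Sftpc, decides both, and without the trachea-titled tumors 1 and 7 the Lamp3 difference was -0.18 (exact permutation, adjusted p = 0.929). Lamp3 had as few as 3 reads, in tumor 2, which limits the precision of its ratio.

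Among 4268 genes outside the members with a normal lung mean of at least 1000, those whose residue over the 7 tumors was most like that of Sftpc were Cldn18, Gm43085, Chil3, Gm39094, Inmt and Chil1. Their root mean square distance from Sftpc on the log2 scale was 1.64, 1.72, 2.10, 2.19, 2.65 and 2.69 in that order. Within the members, Sftpb (1.37) and Lamp3 (2.25) were the nearest to Sftpc, and Abca3 (8.50) was the farthest. Cldn18, a tight junction protein, had 361 normalized counts in tumor 5, 116.6 in tumor 6 and 40.4 or less elsewhere, against 20456 ± 4948 in normal lung (n = 5, SD). Chil3 had 323 normalized counts in tumor 2, where Sftpc was also high. The genes nearest to Lyz2 were Il18r1, Slc39a8, Bmp3, Cd79b, Cyp2b10 and Ces1d, at distances of 0.640 to 0.943. The nearest member, Sftpd, was at 3.09. Those 6 were picked as the closest of 4268 genes, which by itself favors smaller distances than among the few members. These distances describe 7 tumors, and near-zero values in several of them weigh on the order.

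Other markers of type 2 cells were lower as well, 10 of 11 tested with none higher (24.5% and 24% of all genes tested), at a median log2 fold change of -5.51. The largest falls were in Lyz1 (-9.22), Hc (-9.03), which encodes complement C5, Chil1 (-8.54), a chitinase-like secreted protein, and Lrp2 (-5.92), the endocytic receptor megalin. Fabp5, a fatty acid carrier, had 353 ± 44.7 normalized counts in normal lung (n = 5, SD) and 429.5 ± 109.7 in tumors (n = 7, SD) and did not pass the test (log2 fold change 0.25, limma adjusted p = 0.276).

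Of 14 genes that make surfactant phospholipid, 7 were called lower and 1 higher (24.5% and 24% of all genes tested), with a median log2 fold change of -0.91. Scd2, 1 of the 7, kept its call in 18 of 24 alternatives. Lpcat1 is counted both here and among the other type 2 markers. Scd1, which desaturates fatty acids, fell from 56862 ± 18798 normalized counts in normal lung (n = 5, SD) to 3939 ± 6809 in tumors (n = 7, SD), a log2 fold change of -5.15 (standard error 0.81, limma adjusted p = 0.000106), and tumor 7 held the highest tumor value, 19234. Lpcat1, which remodels lysophosphatidylcholine into the saturated surfactant lipid, fell by 2.70 on the log2 scale, with tumors between 1367 and 2177 normalized counts and normal lungs between 10204 and 13050. Chpt1, which makes phosphatidylcholine, and Gpam, which acylates glycerol phosphate, fell by 2.52 and 2.22 on the log2 scale. Elovl6, a fatty acid elongase, was the one gene called higher, at 295 ± 129 normalized counts in normal lung (n = 5, SD) and 1158 ± 371 in tumors (n = 7, SD), with a log2 fold change of 2.01 (standard error 0.28, limma adjusted p = 3.32e-05). Srebf1, a regulator of lipid synthesis, was above every normal lung in every tumor but its log2 fold change of 0.59 was under the limit of 1. Chka and Chkb, the choline kinases, were at 0.02 and 0.14. A gene on the same strand, Gm44502, shares 50.7% of the exon bases of Chkb, so the counts of Chkb are uncertain.

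Genes of surfactant protein processing, lamellar bodies and secretion divided into those called lower, 6 of 9, and 3 that were not called. The share called lower over all genes tested was 24.5%. Adgrf5, a receptor that restrains surfactant pools, fell by 5.75 on the log2 scale, and Rab38, a GTPase of lamellar body formation, by 5.63. Ctsh, a protease of SP-B and SP-C processing, fell by 3.69, and P2ry2, the ATP receptor that stimulates secretion, by 3.57. Hps1, Hps4 and Ap3b1, which serve lysosome-related organelles in many cell types, had log2 fold changes of 0.66, 0.60 and 0.23 and were not called. Of 8 genes of surfactant clearance by macrophages, 5 were called lower (24.5% of all genes tested), among them Spi1 (-2.85) and Csf2rb (-2.44), a chain of the GM-CSF receptor. With edgeR 1 of these 8 was lower, with DESeq2 1 of the 6 it gave an adjusted p, and with limma but without normal lung 3 it was 3 of 8. In tumor 7 Spi1 and Csf2rb, at 3567 and 4041 normalized counts, lay above every normal lung.

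**Figure D4:**
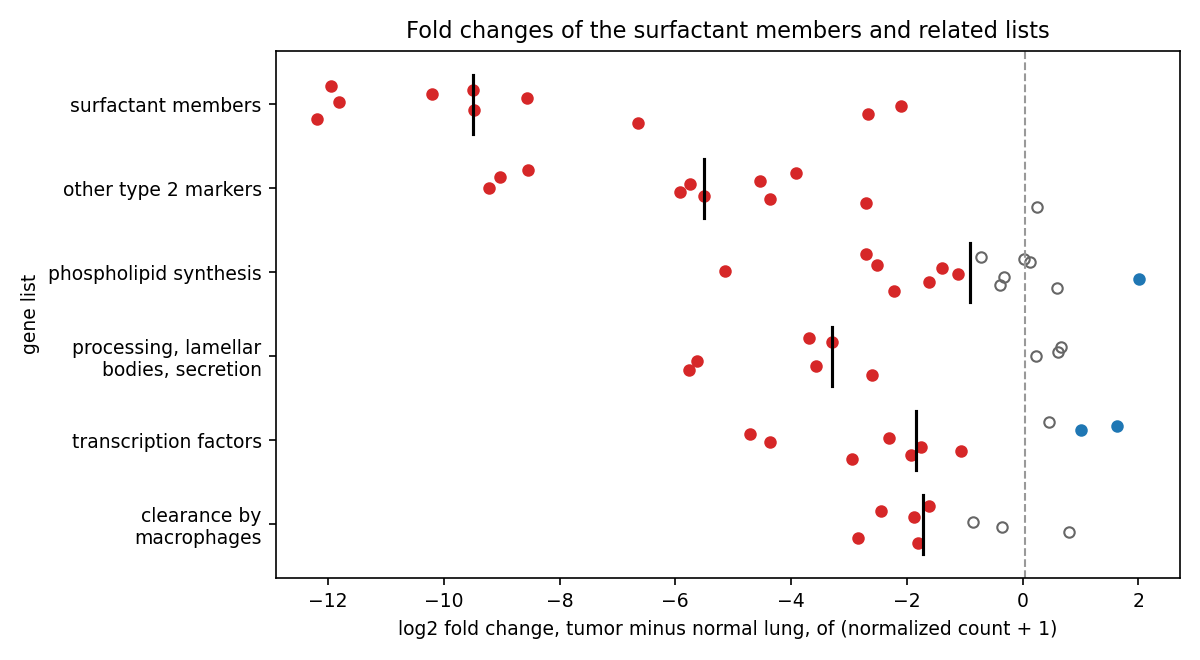
Log2 fold change (tumor minus normal lung, of normalized count plus 1) of each gene in 6 lists, with red for called lower, blue for called higher and open circles for not called, a black bar at each list's median and a dashed line at the median of all genes (0.04). The members' median lies at -9.49, that of phospholipid synthesis at -0.91, and the blue circles are Elovl6, Foxa1 and Foxa2.

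The transcription factors of type 2 cells did not all follow the members. Of 10 tested, 7 were called lower and 2 higher (24.5% and 24% of all genes tested), with a median log2 fold change of -1.84. With edgeR 5 of 10 were lower and 2 higher, and with DESeq2 5 of 9 were lower and 2 higher, both on 11 samples. Nkx2-1, the lung lineage factor, had 8645, 7645, 7307, 8203 and 9000.4 normalized counts in normal lung, and ran from 4566 in tumor 7 through a median of 12660.1 to 14594 in tumor 3. It lay above every normal lung in tumors 1 to 6 and below every normal lung in tumor 7, and the log2 fold change of 0.45 did not pass the test (standard error 0.25, limma adjusted p = 0.133). Foxa1, a pioneer factor of lung epithelium, rose from 1582 ± 178 in normal lung (n = 5, SD) to 5629 ± 3023 in tumors (n = 7, SD), a log2 fold change of 1.63 (standard error 0.36, limma adjusted p = 0.00147), although tumor 7 (1592) lay within normal lung. Its relative Foxa2 had a log2 fold change of 1.01 (standard error 0.28, limma adjusted p = 0.00726), which fell under the limit of 1 in 7 of 24 alternatives, without normal lung 3 or 5 or without tumor 1, 3, 4, 5 or 6, with 0.89 without tumor 3 as the lowest.

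Cebpa, a factor of type 2 cell maturation, fell by 4.72 on the log2 scale (standard error 0.53, limma adjusted p = 5.64e-06), from 6069 to 8028 normalized counts in normal lung to 101 to 1822 in tumors, and tumor 7 was the highest. Etv5, which maintains type 2 identity, fell by 4.37, and its tumor values ran from 35.5 in tumor 1 to 336 in tumor 6. Grhl2, an epithelial factor, had a log2 fold change of -2.95, with tumor 1 (723) within the range of normal lung and the other 6 tumors at 95.2 or less. Cebpd, a further C/EBP factor, fell by 2.31.

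**Figure D5:**
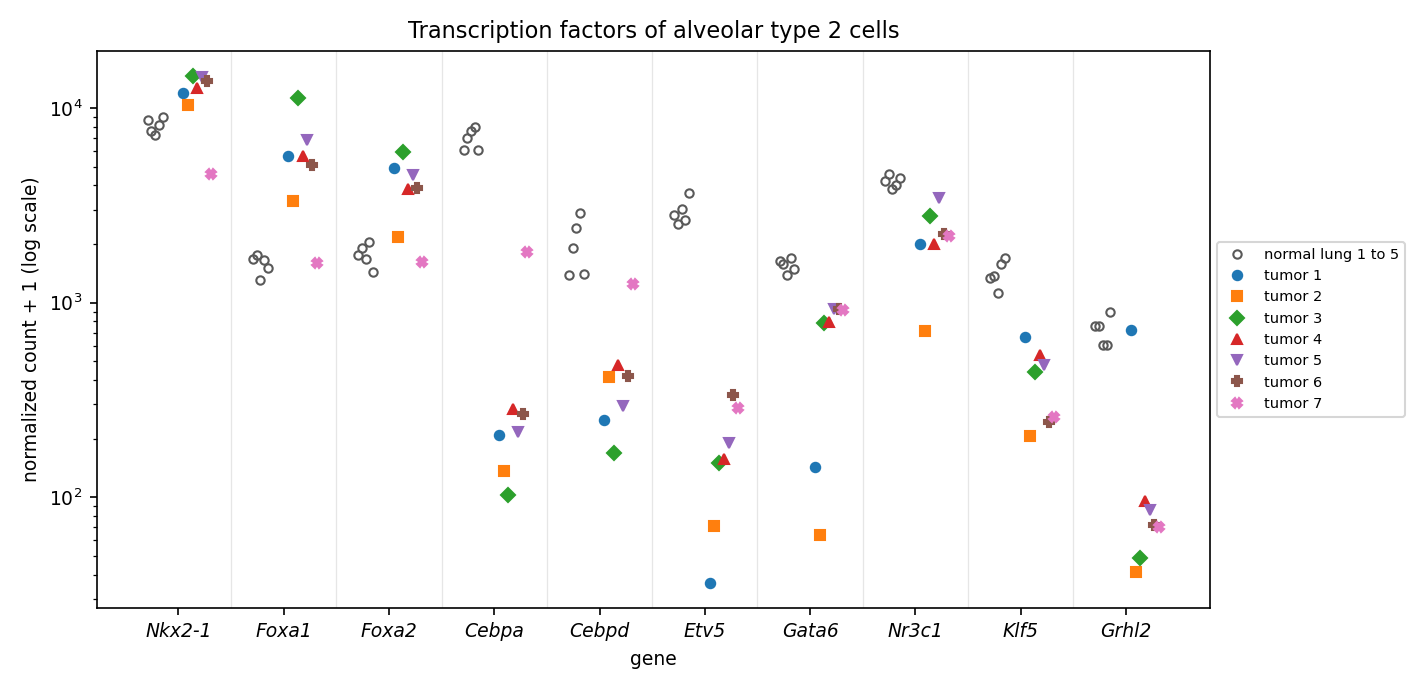
Normalized count plus 1 (log scale) of 10 transcription factors of type 2 cells, with open circles for normal lungs 1 to 5 and colored symbols for tumors 1 to 7. Nkx2-1, Foxa1 and Foxa2 lie above the open circles in tumors 1 to 6, while Cebpa lies below them in all 7 tumors (101 to 1822).

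Markers of most other cells of normal lung were also lower, where 24.5% of all genes tested were called lower. All 9 of 9 alveolar type 1 markers (median log2 fold change -4.83), 6 of 7 club cell markers (-7.79), 7 of 7 ciliated cell markers (-4.51) and 9 of 9 endothelial markers (-4.80) were called lower. Of 7 fibroblast markers, 3 were called lower and 4 were not called (median -1.68), with no test against the share of all genes. Among blood cell lists, 6 of 7 alveolar macrophage (-3.52), 7 of 10 macrophage and monocyte (-2.86), 7 of 8 neutrophil (-5.02) and 6 of 6 lymphocyte markers (-4.92) were called lower. With edgeR the macrophage and monocyte count was 4 of 10, that of neutrophils 3 of 6 and that of lymphocytes 3 of 6. The members' median of -9.49 was below that of each of these lists, a description with no test of the difference. Genes that are low in normal lung cannot fall as far on this scale. The 6 lymphocyte markers, for example, summed to only 1435 to 3133 normalized counts there. Among lists for tissues near the lung, 3 of 8 cartilage and trachea markers were called higher (Col2a1, Acan and Cnmd, all of cartilage). The share over all genes tested was 24%, and no test of the difference was made. The 6 cardiac muscle markers had a median log2 fold change of -0.91 with limma and 1.82 with edgeR. In tumor 7 the 6 cardiac markers summed to 34202 normalized counts, against 189 to 3632 in normal lung. Whether tissue around the tumors contributed to the residue of the members was not tested.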

How the data were processed

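Poly-A RNA was sequenced from 5 normal lungs and 7 tumors, per the labels. The deposited table holds a normalized count signal, and featureCounts, DESeq2 and build GRCm39 are named in the submitters' processing notes. The aligner, annotation, versions and use of strand are not given in the sources used here. All values were whole multiples (tolerance 0.01 reads) of the worth of 1 read in their sample, which gave back the reads. In tumor 3 that worth is close to 1, so it was left out of the count tests.

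The 23674 genes with a mean value of 1 or more entered a test on log2(value + 1) by limma 3.58.1 (lmFit, eBayes with trend, R 4.3.3) and Benjamini-Hochberg adjustment over all of them, the form the design had foreseen for normalized values. The added 1 makes the fold changes of low genes smaller in size, as Cxcl15 had -12.18 here and -13.4 with a pseudocount of 0.1. For every member, however, the limma value was larger in size than those of edgeR and DESeq2 on 11 samples. That of Cxcl15 was -9.39 with edgeR and -9.44 with DESeq2, so limma values do not understate falls relative to the count tests. On simulated data for this comparison (23363 genes, changes of 2 log2 units) limma recovered 183 of 200 changed genes, and 10 of its 193 calls were false. The simulation gave all genes the same dispersion in both groups, changed far fewer genes than were called here, and counted calls by adjusted p alone. Its error rates therefore do not carry over to the calls made here. Alternatives were edgeR 4.0.16, DESeq2 1.42.0, other pseudocounts, filters and scalings, treatment of same-numbered tumors, and leaving out samples. Ratios were tested with scipy 1.17.1, and figures drawn with matplotlib 3.10.9.

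Symbols (29982 of 30399 identifiers) and exon lengths came from GENCODE M21 (GRCm38), so coordinates are given only for RefSeq start regions. The 25 same-group library pairs without tumor 3 differed beyond sampling noise, with chi-square divided by its degrees of freedom at 18.4 or more, and pairs with tumor 3 were not compared. The members and lists were chosen with earlier results of these data known. Named are all members, at most 4 genes with the largest fold changes in each list plus any that go against it, and the 6 genes nearest to Sftpc and to Lyz2. S100g, Hps6, Cav1, Tcf21, Ear2, Plet1, Ms4a1 and Actc1 were not analysed here. Some genes of the lists that meet this rule are not reported here.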

Additional observations from a re-analysis of the deposited data

How the results depend on the processing

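All 10 members kept the direction of their change in each of 24 alternatives, and 9 or 10 of them were called lower. The exception was Napsa with edgeR on 11 samples (-1.67, adjusted p = 0.0647), and the cause was not tested. The size of the fold changes was less stable, as that of Cxcl15 was -12.18 with limma, -13.4 with a pseudocount of 0.1, -10.34 with one of 10 and -9.39 with edgeR. The number of genes called lower was 3767 with edgeR, which tested 18308 genes, against 5805 with limma. With all columns scaled to the same total, 6484 genes were higher and 5163 lower, and the median log2 fold change of all genes was 0.23 against 0.04. Leaving out 1 sample gave 5326 to 5866 genes higher and 5509 to 6256 lower. The log2 difference of the ratio to Sftpc then ran from 0.56 to 1.18 for Sftpb, from 0.31 to 1.45 for Lamp3 and from 2.75 to 4.31 for Lyz2. Without the trachea-titled tumors the Lamp3 ratio reversed to -0.18, a value not past the test, as before; the cause was not tested. Depth limits 6 of 10 members, which had 3 reads or fewer in at least 1 tumor. No paired analysis was possible because the labels give no replicate numbers shared by normal lung and tumor.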
